A study of Mus musculus with 48 samples.

Results

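Fatty acid desaturases put double bonds into fatty acids, and 7 of their genes are described here, of 55416 genes counted. They are the 4 stearoyl-CoA desaturases Scd1, Scd2, Scd3 and Scd4 and the 3 genes Fads1, Fads2 and Fads3, chosen by name and found by their Ensembl identifiers. All 7 passed the filter on low counts and were tested, Scd3 and Scd4 only through groups other than DN:HOM. Liver RNA came from 48 C57Bl/6J mice that had eaten a western diet for 8 weeks from about 8 weeks of age. One study held mice with the p.W441R change in LXRα, which acts as a dominant negative (DN:WT, DN:HET and DN:HOM, 8 livers each), and another held LXRα knockout mice (KO:WT, KO:HET and KO:HOM, 8 livers each). Both alleles are germline and so present in every cell, the knock-in line goes back to a single founder animal, the knockout line was backcrossed to C57BL/6, and the mice of each study came from crosses of heterozygous parents. The studies were run at different institutes, so allele and study cannot be told apart where DN and KO livers are compared.

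Stearoyl-CoA desaturases make oleate and palmitoleate from saturated fatty acyl-CoA, and their products are the main monounsaturated fatty acids of triglycerides, cholesteryl esters and phospholipids. Scd1 is the main form of adult mouse liver and is induced by feeding through SREBP-1c, the product of Srebf1, and by LXRα. Scd2 is known for its expression in brain and in many non-hepatocyte cells, Scd3 for sebaceous and Harderian glands and Scd4 for heart. Fads2 carries out the first desaturation of linoleate and α-linolenate, and Fads1 the last step towards arachidonate and eicosapentaenoate, with an elongation by Elovl5 between them. Fads3 is a related enzyme that acts on sphingoid bases. These enzymes draw electrons from NADH through cytochrome b5 reductase and cytochrome b5.

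All 7 genes lie on chromosome 19, in 2 clusters. In GRCm39 the stearoyl-CoA desaturases span 207 kb, with Scd3 (ENSMUSG00000025202, 44191708 to 44232455), Scd2 (ENSMUSG00000025203, 44281613 to 44295303) and Scd4 (ENSMUSG00000050195, 44321531 to 44336783) on the forward strand and Scd1 (ENSMUSG00000037071, 44382894 to 44399154) on the reverse strand. The Fads cluster spans 156 kb, with Fads3 (ENSMUSG00000024664, 10018253 to 10037928) and Fads1 (ENSMUSG00000010663, 10160167 to 10174241) on the forward strand and Fads2 (ENSMUSG00000024665, 10038130 to 10079203) on the reverse strand. Fads3 and Fads2 therefore converge, and their 3′ ends are 201 bases apart. Promoter sequences were given by RefSeq (GRCm38.p6) for 4 of the 7 members. Because only these were given, their windows of 250 bases before the start site are shown, 5′ to 3′ on the strand of the gene. Their positions are chr19:44203038-44203287 (Scd3, forward), chr19:44333076-44333325 (Scd4, forward), chr19:10101504-10101753 (Fads2, reverse) and chr19:10041298-10041547 (Fads3, forward). Capitals mark matches on either strand to the element TTTAAA, to the GC box (GGGCGG) and to the box CCAAT.
Scd3: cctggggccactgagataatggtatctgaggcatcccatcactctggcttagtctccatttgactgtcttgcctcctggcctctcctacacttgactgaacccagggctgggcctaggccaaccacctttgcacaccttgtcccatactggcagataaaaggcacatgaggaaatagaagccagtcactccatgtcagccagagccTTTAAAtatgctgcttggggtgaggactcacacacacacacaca
Scd4: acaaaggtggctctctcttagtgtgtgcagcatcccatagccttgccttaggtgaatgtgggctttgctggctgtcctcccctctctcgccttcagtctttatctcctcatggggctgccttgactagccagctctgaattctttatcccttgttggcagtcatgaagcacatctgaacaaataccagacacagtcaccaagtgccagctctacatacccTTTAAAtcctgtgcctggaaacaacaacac
Fads2: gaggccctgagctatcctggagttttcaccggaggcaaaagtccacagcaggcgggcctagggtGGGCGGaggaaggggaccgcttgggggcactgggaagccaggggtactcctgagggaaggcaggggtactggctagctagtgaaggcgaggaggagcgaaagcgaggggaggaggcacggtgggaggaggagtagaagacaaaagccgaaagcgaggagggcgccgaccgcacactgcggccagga
Fads3: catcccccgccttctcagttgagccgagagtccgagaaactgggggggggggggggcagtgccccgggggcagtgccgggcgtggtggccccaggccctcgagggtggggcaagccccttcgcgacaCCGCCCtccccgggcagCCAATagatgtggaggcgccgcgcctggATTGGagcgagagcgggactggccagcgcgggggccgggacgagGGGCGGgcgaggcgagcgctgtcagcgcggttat

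Scd3 and Scd4 each held TTTAAA, from 44 and from 30 bases before the start site, and 12.1% of the 32851 promoter windows of this length held that sequence. Fads2 held 1 GGGCGG and Fads3 held 2, with 32.7% of all windows holding at least 1. Fads3 also held 2 CCAAT boxes, found in 33.8% of windows. The Fads2 and Fads3 windows had 64.8% and 74.4% G and C with 14 and 26 CG pairs, against 52.4% and 49.6% with 0 and 1 pairs in Scd3 and Scd4 and a median of 52.4% and 6 pairs over all windows. Further searches on both strands for TCACNCCAC (in 1.05% of windows), CACGTG (6.02%) and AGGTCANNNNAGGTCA (0.0152%) found no match in these 4 windows, and no searched sequences overlapped one another. A match is a description of letters only.

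Reads on genes lay between 5332897 and 16961379 per liver, with 2 shallow livers in the knockout study. DN:WT liver 10 and DN:HOM liver 12 went against their labels, and the study's own source data for other genes hold the remaining 7 DN:WT, 8 DN:HET and 7 DN:HOM livers. The legend of the study's RNA-seq heatmap gives n = 8, so whether both were left out there is not known. The values below are from 46 livers without livers 10 and 12, and values over all 48 livers stand beside the homozygous knock-in effects on the members. Nr1h3, which encodes LXRα, had 93.6 ± 8.82 CPM (counts per 1e+06 reads of the TMM-scaled library; SD, n = 8) in KO:WT, 59.2 ± 5.63 in KO:HET and 27 ± 1.99 in KO:HOM livers (both n = 8). Gene counts do not show whether the reads left in KO:HOM livers lie outside the deleted part, and a point change such as W441R cannot be checked by counts. It had 91.8 ± 5.04 CPM in DN:WT and 72.8 ± 3.56 CPM in DN:HOM livers (SD, n = 7), and liver 10 had 71.3 CPM and liver 12 had 86.9 CPM. Per library size alone, the same DN:WT and DN:HOM livers had 86.8 ± 5.68 and 93.5 ± 3.31 CPM (0.11, SE 0.06; edgeR adjusted p = 0.13), and livers 10 and 12 had 89.2 and 80.5 CPM, so the lower level in DN:HOM livers rests on the scaling. Hepatocyte markers had the highest summed level of the 9 marker lists in every liver, and 0 of 48 livers had more Xist than Ddx3y reads. With library size as the only scaling, the median log2 fold change of all genes in DN:HOM against DN:WT livers moved from -0.01 to 0.42, so changes are given relative to TMM scaling, which holds that median near 0.

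Scd1 was by far the most abundant desaturase transcript of wild-type liver. Per kilobase of exon, its median level was 5881 CPM in DN:WT and 2908 CPM in KO:WT livers. Fads2 followed with medians of 162 and 229 CPM per kilobase, then Fads1 with 88.7 and 124. The levels of these last 2 overlapped between livers, but Fads1 stood below Fads2 in each of the 46 livers. Fads3 (1.54 ± 0.586 CPM per kilobase; SD, n = 7) and Scd2 (1.21 ± 0.263; SD, n = 7) came next in DN:WT livers, with ranges that overlapped. Within a DN:WT liver Fads3 mostly stood above Scd2, but not in liver 13 (0.800 and 1.04). Scd3 (0.415 ± 0.146) and Scd4 (0.366 ± 0.137) came last and differed by less than the SD of each. In DN:HOM livers the medians per kilobase were 110 CPM for Scd1, 62.4 for Fads2 and 41.9 for Fads1, and Scd2 at 4.22 stood above Fads3 at 2.19.

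In DN:HOM against DN:WT livers, the comparison that asks what the dominant negative receptor does to the desaturases, 5 members fell (Scd1, Scd3, Scd4, Fads1 and Fads2), Scd2 rose, and Fads3 did not pass the test. In that comparison 59.1% of all tested genes were called by edgeR's quasi-likelihood test at a Benjamini-Hochberg adjusted p under 0.05, with 30% lower and 29.1% higher, so 6 of 7 called is to be read against a large background. The groups did not overlap for those 6 members, as for 33.5% of all genes. Scd3 and Scd4 entered these counts only because their reads in other groups passed the filter. The median log2 fold change of the 7 members was -1.49, against -0.01 over all 15711 genes tested. In KO:HOM against KO:WT livers, which carry the knockout instead, 4 members fell (Scd1, Scd3, Fads1 and Fads2) and 0 rose. There 19.4% of all genes were called, 7.87% lower and 11.5% higher, the members' median was -0.86 against -0.02, and the groups overlapped for all 7 members, while 2.55% of genes had groups that did not overlap. Over all 48 livers the counts called were 6 and 3 of 7, beside 48% and 12.9% of genes.

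Scd1, the enzyme that supplies oleate for triglyceride synthesis, had the largest difference of the family in DN:HOM against DN:WT among the 46 livers. Over all 48 livers those of Scd3 and Scd4, genes with few reads, were larger, and in the knockout study that of Scd3 was. The levels of Scd1 were as follows. Its lowest, median and highest levels were 22533.5, 42381 and 45317 CPM in the 7 DN:WT livers, 13742, 30720 and 44901 CPM in the 8 DN:HET livers, and 350, 791 and 1088 CPM in the 7 DN:HOM livers. Every DN:HOM liver lay far below every DN:WT and DN:HET liver. Scd1 alone took 2.19% to 4.30% of all gene reads in DN:WT livers and 0.0441% to 0.142% in DN:HOM livers. The log2 fold change of DN:HOM against DN:WT was -5.68 (SE 0.50), a 51.4-fold lower level, with an adjusted p of 4.4e-13 by edgeR's quasi-likelihood test. Liver 10, labelled DN:WT, had 1211 CPM and liver 12, labelled DN:HOM, had 42403 CPM, the first just above the DN:HOM range and the second within the DN:WT range. With both in, the log2 fold change was -2.54 (SE 0.73; edgeR adjusted p = 0.00457) and the groups overlapped.

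In the knockout study Scd1 was spread widely within each genotype. The lowest, median and highest levels were 6344, 20957 and 49880 CPM in KO:WT, 12435, 19573 and 47329 CPM in KO:HET, and 2697, 7151 and 23030.5 CPM in KO:HOM livers (n = 8 each). The highest KO:HOM liver, animal 11, was above 4 of the 8 KO:WT livers, so the groups overlapped. The log2 fold change of KO:HOM against KO:WT was -1.42 (SE 0.39; edgeR adjusted p = 0.00662), a 2.68-fold lower level. The same difference of -1.42 had an adjusted p of 0.193 when the knock-in livers 10 and 12 entered the joint fit and its SE was 0.71. Over the 10 alternatives the adjusted p lay between 0.00382 and 0.193, with 8 calls. The other lost call was that with KO:WT and KO:HOM livers fitted alone. The joint fit shares 1 spread per gene over all groups. The SD of log2 CPM was 1.09 in KO:WT and 1.10 in KO:HOM, against 0.38 in DN:WT and 0.54 in DN:HOM livers. The homozygous effect was 4.26 log2 units further down in the knock-in than in the knockout study (-4.26, SE 0.58; edgeR adjusted p = 1.8e-07), and over all 48 livers -1.12 (SE 0.98; adjusted p = 0.48).

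**Figure D1:**
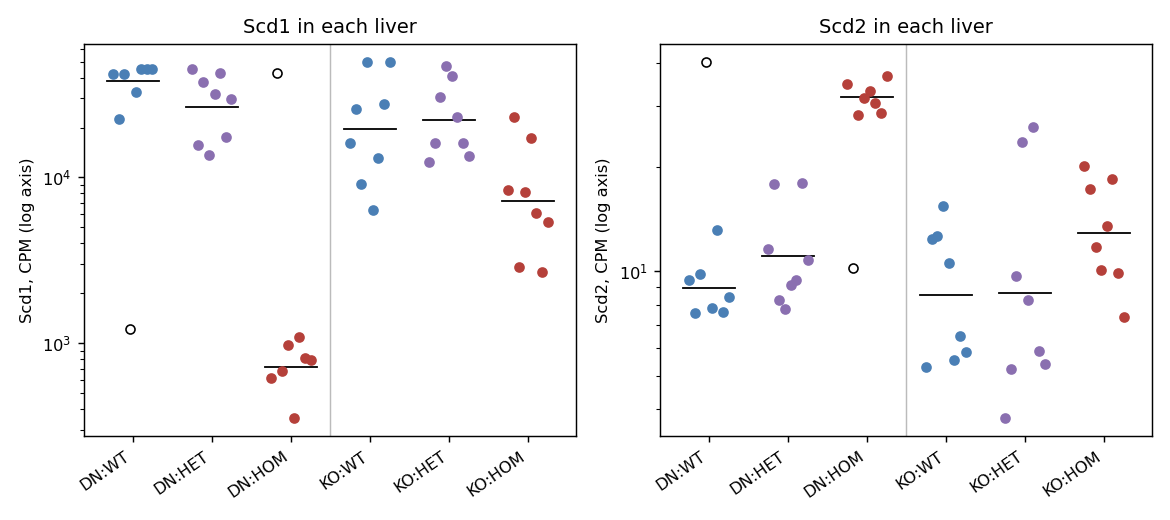
CPM of Scd1 (left) and Scd2 (right) in each liver by genotype group, on log axes, with lines at the geometric mean of the 46 livers analysed and open circles for DN:WT liver 10 and DN:HOM liver 12. The 7 filled DN:HOM points of Scd1 lie between 350 and 1088 CPM, below all other groups, while those of Scd2 lie between 28.4 and 36.8 CPM, above the other filled points.

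Scd2, the paralogue known from brain and non-hepatocyte cells, went the other way. Its lowest, median and highest levels were 7.57, 8.45 and 13.1 CPM in DN:WT, 7.79, 10.1 and 17.98 CPM in DN:HET, and 28.4, 31.7 and 36.8 CPM in DN:HOM livers. The lowest DN:HOM liver stood above the highest DN:WT and DN:HET livers. The log2 fold change of DN:HOM against DN:WT was 1.82 (SE 0.31; edgeR adjusted p = 2.1e-06), or 3.53-fold, and 1.16 (SE 0.34; adjusted p = 0.00559) over all 48 livers, where liver 10 had 40.3 CPM and liver 12 had 10.2 CPM. In the knockout study the levels were 5.30, 8.54 and 15.4 CPM in KO:WT, 3.76, 7.07 and 26.2 CPM in KO:HET and 7.41, 12.7 and 20.1 CPM in KO:HOM livers, and these ranges overlapped throughout. The difference of KO:HOM from KO:WT was 0.55 (95% interval -0.01 to 1.12; edgeR adjusted p = 0.181), which did not pass the test. The homozygous effect was 1.27 (SE 0.42; adjusted p = 0.0153) greater in the knock-in study, and 0.60 (SE 0.49; adjusted p = 0.44) over all 48 livers.

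Set against each other per kilobase within the same liver, Scd1 exceeded Scd2 by a median of 4494 times in DN:WT livers (3096 to 6167) and of 24.98 times in DN:HOM livers (11.04 to 37.1). The corresponding medians were 2820 (624 to 8794) in KO:WT and 593 (251 to 1384) in KO:HOM livers. The mean log2 ratio of Scd2 to Scd1 rose by 7.56 (SE 0.26) in DN:HOM livers, with a two-sided exact permutation p of 0.00058, the smallest that 7 against 7 livers allow, and an adjusted p of 0.00233 over the 4 comparisons of this ratio. It rose by 2.04 (SE 0.57; exact permutation p = 0.00389, adjusted 0.00777) in KO:HOM livers. The difference was 0.83 (SE 0.36; exact permutation p = 0.0513, adjusted 0.0684) in DN:HET and -0.16 (SE 0.52; exact permutation p = 0.757, adjusted 0.757) in KO:HET livers, and neither passed the test. Over all 48 livers the DN:HOM difference was 5.73 (SE 1.32; exact permutation p = 0.00264, adjusted 0.00777). The homozygous effects on the ratio differed by 5.52 between the studies (p = 2e-05 over 100000 permutations of the study within genotype), and by 3.68 (p = 0.025) over all 48 livers. These permutations treat the studies as exchangeable within a genotype, so study differences in level or spread also enter the p. The mean log2 ratio was -12.12 (SD 0.34) in DN:WT and -11.22 (SD 1.27) in KO:WT livers.

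**Figure D2:**
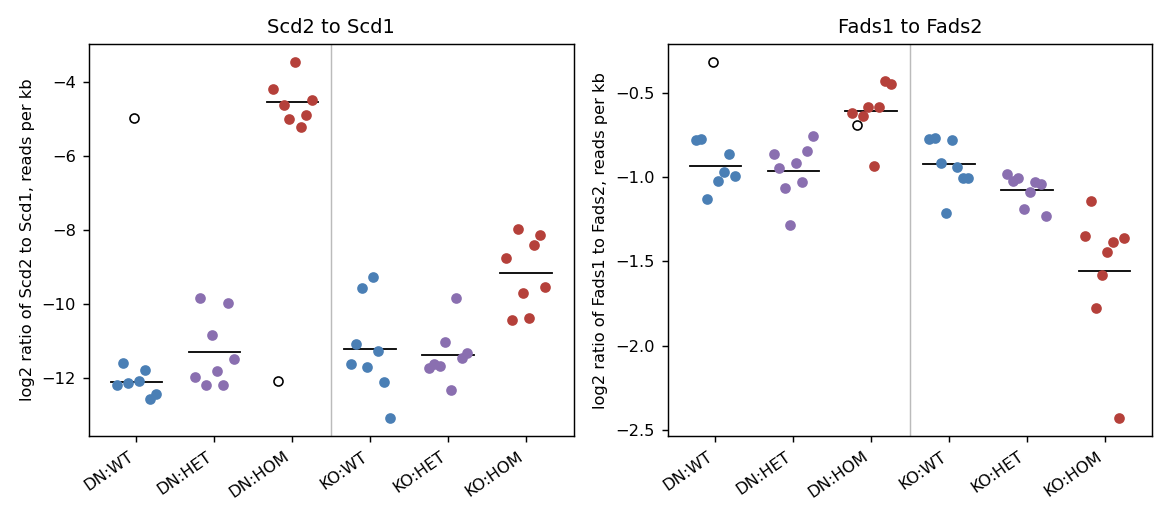
Log2 ratio of Scd2 to Scd1 (left) and of Fads1 to Fads2 (right) in each liver, from reads per kilobase of exon, with lines at the mean of the 46 livers analysed and open circles for DN:WT liver 10 and DN:HOM liver 12. On the left both homozygous groups sit above their wild-type group, by 7.56 in the knock-in and 2.04 in the knockout study, and on the right they move apart, by 0.33 and -0.64.

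Markers of other cell types moved in the same livers as Scd2, in DN:HOM livers where 59.1% of all genes were called (19.4% in KO:HOM livers). In bulk tissue, fewer cells of a type and less RNA per cell cannot be told apart. The summed level of 9 hepatic stellate cell markers was 116 to 169 CPM in DN:WT and 571 to 791 CPM in DN:HOM livers (8 higher, 0 lower), and that of 7 cholangiocyte markers was 43.6 to 81.2 and 748 to 1091 CPM (7 higher). The 14 macrophage and Kupffer cell markers summed to 176 to 310 and 1031 to 1635 CPM (9 higher, 4 lower), and the 5 neutrophil markers to 3.20 to 6.47 and 29.1 to 77.9 CPM (4 of 4 tested higher, with Ly6g at 0 reads in all DN:WT livers). Of the macrophage list, Lyz2 alone had 31.8 to 68.0 CPM in DN:WT and 589 to 1058 CPM in DN:HOM livers. The log2 fold changes of that list ran from -7.74 to 7.50, so its sum hides opposite movements. The 9 hepatocyte markers summed to 69062 to 84974 CPM in DN:WT and 34638 to 47126 CPM in DN:HOM livers (7 lower). Of the other lists, 4 of 6 T cell markers were higher (summed, 2.16 to 4.14 and 4.24 to 6.91 CPM), 1 of 4 B cell markers was lower (2.85 to 6.87 and 2.32 to 4.28 CPM), 1 of 7 endothelial markers was higher and 4 were lower (116 to 158 and 78.1 to 142 CPM), and the 1 tested of 5 adipocyte markers was lower (92.1 to 240.5 and 0 to 0.738 CPM), with Lep and Plin1 at 0 reads in all DN:HOM livers and Lep also in all DN:WT livers. In KO:WT and KO:HOM livers the stellate cell markers summed to 92.4 to 249.9 and 132 to 298 CPM and the macrophage markers to 113 to 337 and 302 to 1133 CPM. In KO:HOM against KO:WT livers 6 stellate cell markers, 9 macrophage markers, 6 T cell markers, 3 neutrophil markers, 1 cholangiocyte marker and 1 endothelial marker were higher, 6 hepatocyte, 2 macrophage and 1 endothelial marker were lower, and no B cell or adipocyte marker was called. Over the 46 livers, the log2 level of Scd2 had a Pearson r of 0.91 with the summed stellate cell markers and 0.89 with the macrophage markers, and of 0.79 and 0.76 after the mean of each group was taken off. For Scd1 the same values within groups were 0.41 and -0.07. With all 48 livers in, where 48% of all genes were called in DN:HOM and 12.9% in KO:HOM livers, the DN:HOM counts were 8 stellate cell, 6 cholangiocyte, 8 macrophage, 3 neutrophil, 1 T cell and 0 endothelial markers higher, and 6 hepatocyte, 4 macrophage, 4 endothelial, 1 adipocyte and 0 B cell markers lower. The KO:HOM counts were then 1 stellate cell, 6 macrophage, 6 T cell, 1 neutrophil, 0 cholangiocyte and 1 endothelial marker higher, and 3 hepatocyte, 1 macrophage and 1 endothelial marker lower. With the summed hepatocyte markers, the Pearson r within groups over the 46 livers was 0.52 for Fads1, 0.53 for Fads2, 0.31 for Scd1 and -0.34 for Scd2. With the groups left in it was 0.65, 0.83, 0.79 and -0.77. These points share libraries and scaling, and the part of other cells in the results of the members was not tested.

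Scd3 and Scd4, known from skin glands and heart, were near the limit of these libraries. They passed the low-count filter through groups where their reads were higher than in DN:HOM livers. Their calls against DN:HOM livers are therefore no independent support. Scd3 had 11 to 31 reads and 0.778, 1.53 and 2.09 CPM (lowest, median, highest) in DN:WT livers, and 0 to 2 reads and 0, 0.0493 and 0.0984 CPM in DN:HOM livers. Scd4 had 10 to 30 reads and 0.707, 1.47 and 2.09 CPM in DN:WT livers, and 0 to 4 reads and 0, 0.0492 and 0.192 CPM in DN:HOM livers. No DN:HOM liver reached the lowest DN:WT liver for either gene. The log2 fold changes were -4.57 (SE 0.58; edgeR adjusted p = 6.4e-09) for Scd3 and -4.28 (SE 0.63; adjusted p = 1.4e-07) for Scd4, and -3.27 (SE 0.58; adjusted p = 4.5e-05) and -2.69 (SE 0.64; adjusted p = 0.00084) over all 48 livers. In KO:HOM against KO:WT livers Scd3 fell by 1.65 on the log2 scale (SE 0.45; adjusted p = 0.00716), from a median of 0.857 to 0.216 CPM. Scd4 had medians of 0.849 and 0.416 CPM, and its difference of -0.86 (95% interval -1.83 to 0.12; adjusted p = 0.241) did not pass.

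The reads of both genes were also set against those of Scd1, group by group. Summed over the livers of a group, Scd3 had 3.75 reads for every 100000 Scd1 reads in DN:WT (exact 95% interval 3.17 to 4.41), 4.18 in DN:HET, 4.40 in KO:WT, 4.52 in KO:HET, 3.58 in KO:HOM (2.57 to 4.85) and 7.13 in DN:HOM livers (3.08 to 14.1). Scd4 had 3.75 in DN:WT (3.17 to 4.41), 3.95 in DN:HET, 3.33 in KO:WT, 3.56 in KO:HET, 4.62 in KO:HOM (3.46 to 6.05) and 8.91 in DN:HOM livers (4.27 to 16.4). These intervals cover counting error only, and for Scd4 those of KO:WT (2.70 to 4.07) and DN:HOM livers do not meet. Scd2 went from 23.2 in DN:WT to 4231 in DN:HOM livers. Of all runs of 100 bases in the annotated Scd3 transcripts, 2.49% occur exactly in Scd1 transcripts, and for Scd4 0.421% do. For runs of 50 bases the shares are 4.77% and 2.08%. These shares do not show whether any of the few Scd3 and Scd4 reads came from the more abundant paralogue, and that was not tested. In liver 10, Scd3 had 9 reads beside 23927 of Scd1, or 37.6 for every 100000 (17.2 to 71.4), and Scd4 had 4, or 16.7 (4.55 to 42.8), both above the group values. In liver 12, Scd3 had 1.98 (1.02 to 3.46), below the group values, and Scd4 had 3.13 (1.89 to 4.89). With so few reads, the levels of both genes are uncertain. A median of 34.2% of Scd3 reads and 23.5% of Scd4 reads lay on the opposite strand, against 4.61% for Scd1 and 11.4% over all genes.

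Fads1 and Fads2, which act in turn on the way to arachidonate, fell in both homozygous groups. Fads2 had 696, 1061 and 1603 CPM (lowest, median, highest) in DN:WT, 445, 786 and 1529 CPM in DN:HET, and 380, 407 and 440 CPM in DN:HOM livers. The DN:HOM livers lay within 1.16-fold of each other, below every DN:WT and DN:HET liver. The log2 fold change was -1.49 (SE 0.26; edgeR adjusted p = 3.5e-06), and -1.09 (SE 0.28; adjusted p = 0.0016) over all 48 livers. In the knockout study Fads2 had 575, 1497 and 2347 CPM in KO:WT, 864, 1387 and 1777 CPM in KO:HET, and 455, 807 and 1238 CPM in KO:HOM livers. These ranges overlapped, and the fitted difference of KO:HOM from KO:WT was -0.85 (SE 0.24; adjusted p = 0.00817).

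Fads1 had 350, 497 and 690.0 CPM in DN:WT, 198, 361 and 627 CPM in DN:HET, and 171, 235 and 247 CPM in DN:HOM livers. The DN:HOM livers lay below every DN:WT liver but overlapped the DN:HET livers. Its log2 fold change of DN:HOM against DN:WT was -1.13 (SE 0.28; edgeR adjusted p = 0.00046), and -0.80 (SE 0.28; adjusted p = 0.0167) over all 48 livers. It had 288, 692 and 1005 CPM in KO:WT, 376, 550.4 and 735 CPM in KO:HET, and 72.2, 253 and 465 CPM in KO:HOM livers, with a difference of KO:HOM from KO:WT of -1.33 (SE 0.26; adjusted p = 0.00021). The homozygous effects of the studies differed by 0.19 (95% interval -0.54 to 0.92; adjusted p = 0.729) for Fads1 and by -0.64 (95% interval -1.31 to 0.04; adjusted p = 0.152) for Fads2, so neither gene passed the test that separated the Scd genes. Over all 48 livers these differences were 0.52 (95% interval -0.26 to 1.29; edgeR adjusted p = 0.408) for Fads1 and -0.25 (-1.01 to 0.52; adjusted p = 0.722) for Fads2. A difference of about 1 log2 unit between the studies is within the interval of Fads2.

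Within each liver, however, the balance of Fads1 to Fads2 per kilobase moved in opposite directions, a comparison that was added after the data were seen. The median ratio was 0.511 (0.456 to 0.586) in DN:WT, 0.525 in DN:HET and 0.667 (0.524 to 0.744) in DN:HOM livers. It was 0.526 (0.431 to 0.589) in KO:WT, 0.488 (0.425 to 0.508) in KO:HET and 0.376 (0.185 to 0.454) in KO:HOM livers. The mean log2 ratio was 0.33 higher in DN:HOM than DN:WT livers (SE 0.08; exact permutation p = 0.0035, adjusted 0.00699 over the 4 comparisons of this ratio) and fell by 0.64 in KO:HOM livers (SE 0.15; exact permutation p = 0.00031, adjusted 0.00124). In both comparisons the ranges overlapped at their edges. Over all 48 livers the DN:HOM difference was 0.24 (SE 0.10; exact permutation p = 0.0395, adjusted 0.0526) and no longer passed, with liver 10 at a ratio of 0.804. The effects differed between the studies by 0.96 (p = 0.00022 over 100000 permutations of the study within genotype) and by 0.88 (p = 0.0014) over all 48 livers. The limit given for these permutations with Scd2 to Scd1 holds here too.

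**Figure D3:**
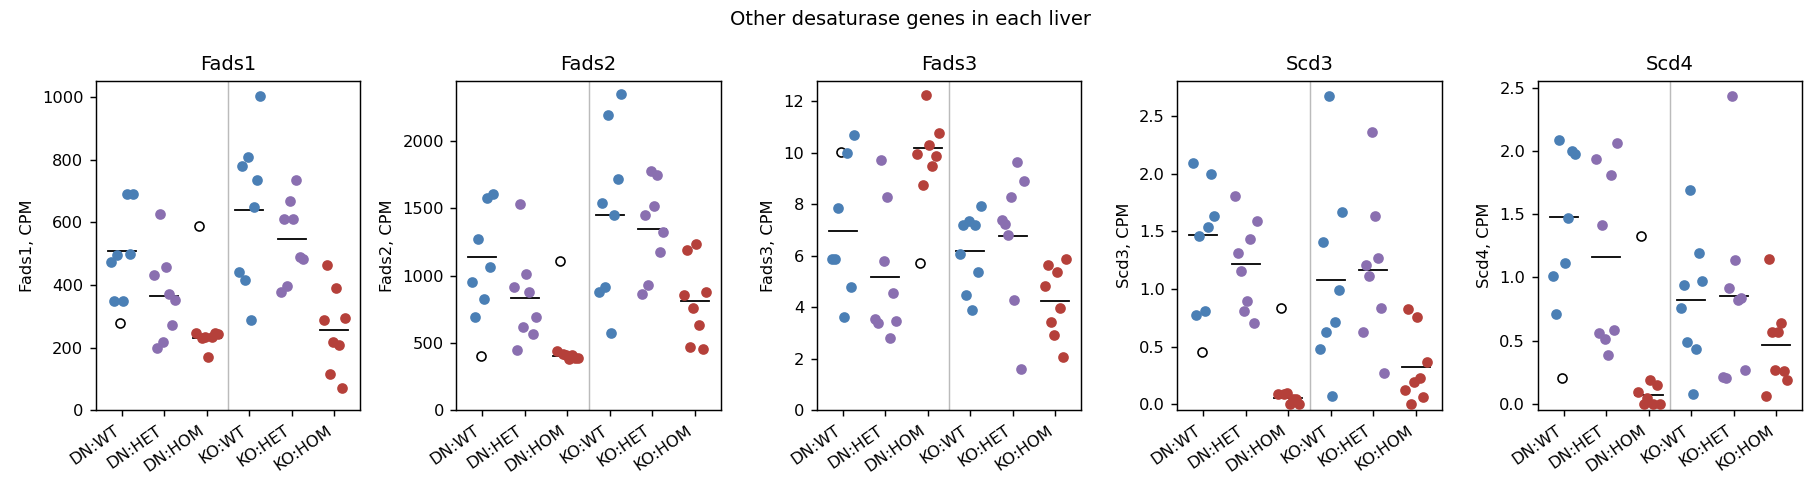
CPM of Fads1, Fads2, Fads3, Scd3 and Scd4 in each liver by genotype group, on linear axes, with lines at the mean of the 46 livers analysed and open circles for DN:WT liver 10 and DN:HOM liver 12. Fads2 in DN:HOM livers is held between 380 and 440 CPM, and the DN:HOM points of Scd3 and Scd4 lie at or close to 0.

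Fads3, the sphingoid base desaturase, gave a result that turned on the strand counted. On its own strand it had 3.63, 5.87 and 10.7 CPM (lowest, median, highest) in DN:WT, 2.79, 4.06 and 9.73 CPM in DN:HET, and 8.76, 9.94 and 12.3 CPM in DN:HOM livers. The DN:HOM livers were at the top of the DN:WT range and overlapped it, and the log2 fold change was 0.56 (SE 0.27; edgeR adjusted p = 0.0657), or 0.39 (SE 0.26; adjusted p = 0.208) over all 48 livers. It was called higher in 4 of the 10 alternatives, with 0.65 (adjusted p = 0.0344) under upper-quartile scaling, 0.995 (adjusted p = 0.00112) with library size alone, 0.60 (adjusted p = 0.0435) with each study alone and 0.57 (adjusted p = 0.0126) with the compared groups alone. In the knockout study it had 3.91, 6.62 and 7.92 CPM in KO:WT, 1.61, 7.32 and 9.64 CPM in KO:HET and 2.07, 4.41 and 5.86 CPM in KO:HOM livers, and the difference of KO:HOM from KO:WT was -0.53 (95% interval -1.04 to -0.02; edgeR adjusted p = 0.151). Reads on the opposite strand outnumbered those on its own strand in 47 of 48 livers, with a median share of 87.8%. The opposite-strand level was 32.6 to 118 CPM in DN:WT, 9.44 to 24.0 CPM in DN:HOM, 24.0 to 81.9 CPM in KO:WT and 10.2 to 36.6 CPM in KO:HOM livers. DN:HOM livers thus lay below every DN:WT liver, while KO:HOM livers reached lower than KO:WT livers and overlapped them. Heterozygous livers overlapped the homozygous ones in both studies. DN:HET liver 4 had 256 opposite-strand reads beside 209 to 532 in DN:HOM livers, and KO:HET liver 15 had 183 beside 281 in KO:HOM liver 20. Counted without strand, Fads3 fell in DN:HOM livers by 1.57 on the log2 scale (adjusted p = 0.00049), the reverse of the direction on its own strand, and in KO:HOM livers by 1.13 (adjusted p = 0.0198). The opposite-strand level of Fads3 had a Pearson r of 0.80 with the log2 level of Fads2 over the 46 livers and of 0.63 within groups, as a description of points that share libraries. A later annotation places the long non-coding RNAs Gm59114 and Gm29917, which were not among the genes counted, on that strand. The source of the opposite-strand reads was not tested.

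**Figure D4:**
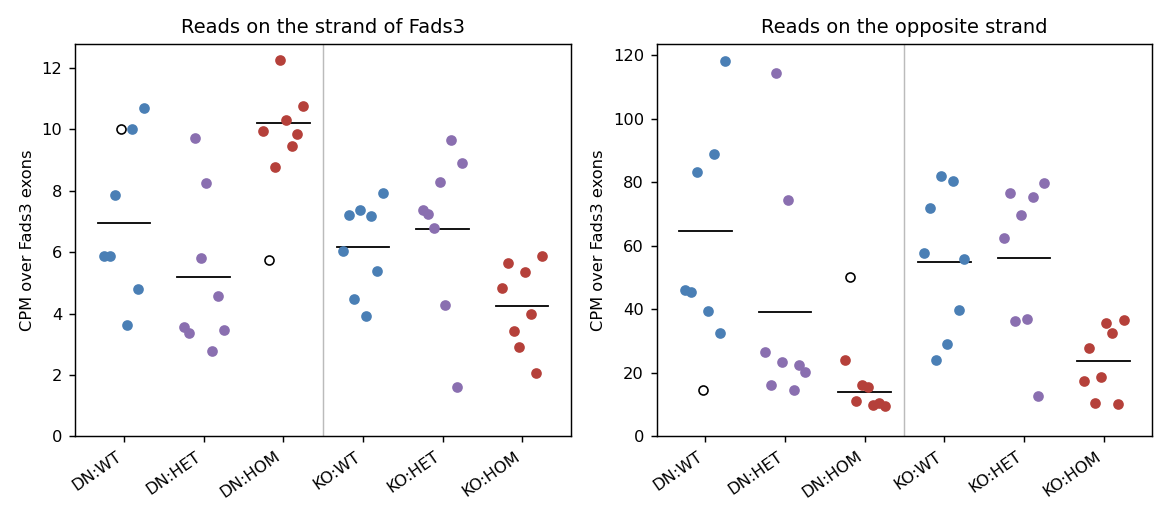
CPM over Fads3 exons on the strand of the gene (left) and on the opposite strand (right) in each liver, with lines at the mean of the 46 livers analysed and open circles for DN:WT liver 10 and DN:HOM liver 12. The axes differ in scale: the left panel ends near 12.3 and the right near 118 CPM. DN:HOM livers are high on the left and low on the right, where DN:HET livers overlap them.

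Heterozygous livers showed no called change of any member. In DN:HET against DN:WT, 0 of 7 members were called by edgeR or DESeq2, 0 had an unadjusted p under 0.05 in edgeR, and 2.3% of all genes were called. The Scd1 difference was -0.44 (95% interval -1.21 to 0.33) and that of Fads2 was -0.46 (-0.94 to 0.02), so falls of up to about 1 log2 unit are within the intervals. DN:HET livers 4, 14 and 22 had the lowest Scd1 of that group at 15646, 13742 and 17607 CPM. In KO:HET against KO:WT, 0 of 7 members were called by edgeR or DESeq2, 0 had an unadjusted p under 0.05, and 0.0191% of all genes were called. The Scd1 difference there was 0.01 (95% interval -0.74 to 0.75), while Nr1h3 itself fell by 0.67 (SE 0.06; edgeR adjusted p = 6e-11).

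Homozygous and heterozygous livers were also compared directly. All 7 members were called in DN:HOM against DN:HET, where 53.9% of genes were called, with Scd2 (1.47, SE 0.29) and Fads3 (0.99, SE 0.26; edgeR adjusted p = 0.00125) higher and the other 5 lower, from -0.66 (SE 0.27; adjusted p = 0.0337) for Fads1 to -5.25 (SE 0.48; adjusted p = 2.4e-12) for Scd1. Without strand the Fads3 difference was -0.86. With livers 10 and 12 in, where 46.4% of genes were called, the differences were -2.29 (SE 0.73; adjusted p = 0.00915) for Scd1, 1.33 (SE 0.35) for Scd2, -3.13 (SE 0.58) for Scd3, -2.51 (SE 0.64) for Scd4, -0.76 (SE 0.28) for Fads2 and 0.89 (SE 0.26) for Fads3, and Fads1 was not called (-0.42, SE 0.28; adjusted p = 0.223). Nor was Fads1 called with library size alone (-0.27, SE 0.26; edgeR adjusted p = 0.362) or upper-quartile scaling (-0.58, SE 0.26; adjusted p = 0.0591). In KO:HOM against KO:HET, where 10.6% of genes were called, Scd1 fell by 1.43 (SE 0.39), Scd3 by 1.73 (SE 0.45), Fads1 by 1.09 (SE 0.26) and Fads2 by 0.73 (SE 0.24), with edgeR adjusted p of 0.0128, 0.00985, 0.0048 and 0.0373. Over all 48 livers the calls of Scd1 (adjusted p = 0.258) and Fads2 (adjusted p = 0.114) were lost and those of Scd3 and Fads1 were kept, beside 4.72% of genes called. The call of Fads2 was also lost with library size alone, without the 2 shallow livers and with each study alone (edgeR adjusted p = 0.0589, 0.12 and 0.0719), and that of Scd1 with each study alone (adjusted p = 0.0513). The difference between the homozygous effects was called for 5 of 7 members, beside 34.7% of all genes: Scd1, Scd2, Scd3 (-2.92, SE 0.77), Scd4 (-3.43, SE 0.82) and Fads3 (1.09, SE 0.37; adjusted p = 0.019), and for 0 of 7 over all 48 livers, where 10.5% of genes were called and 3 members had an unadjusted p under 0.05. The differences were then -1.63 (SE 0.79) for Scd3, -1.84 (SE 0.89) for Scd4 and 0.92 (SE 0.37) for Fads3. The wild-type livers of both studies differed in 12% of all genes and in 0 of 7 members by edgeR and by DESeq2, with 0 at an unadjusted p under 0.05 in edgeR and the widest differences at 0.83 (95% interval -0.07 to 1.73) for Scd4 and 0.67 (-0.10 to 1.44) for Scd1.

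**Figure D5:**
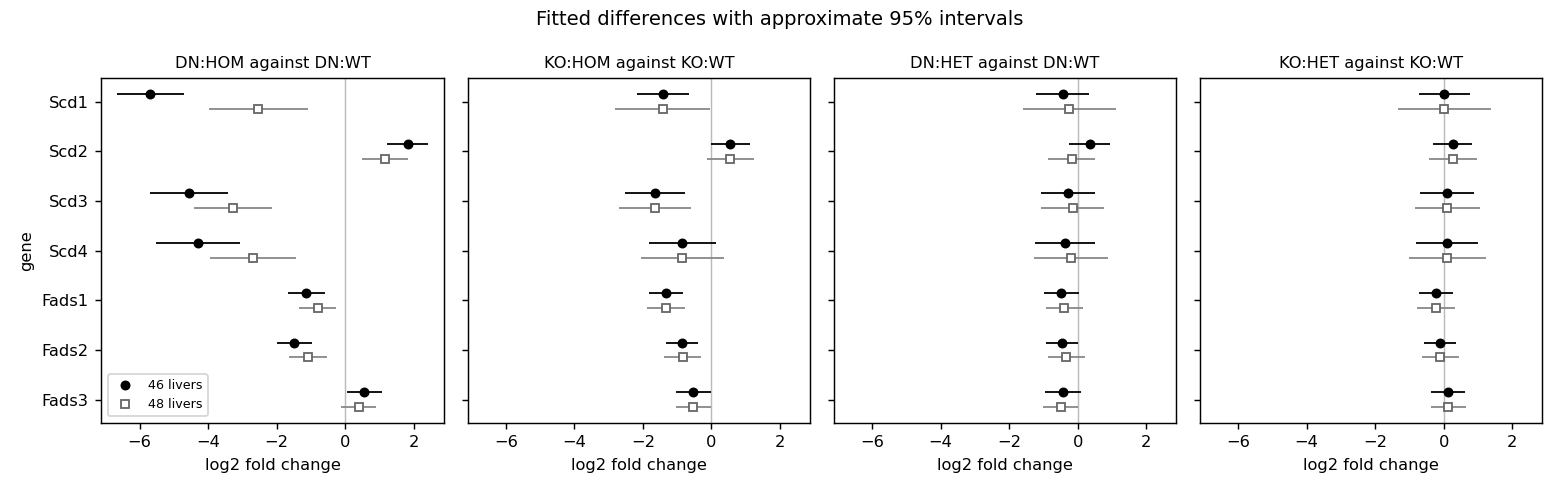
Log2 fold changes of the 7 members in 4 comparisons with approximate 95% intervals from edgeR, with filled circles for the fit of 46 livers and open squares for that of 48. In DN:HOM against DN:WT the filled circles run from -5.68 for Scd1 to 1.82 for Scd2, and the open squares lie closer to 0, while the heterozygous intervals of the filled circles all span 0.

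The genes around the desaturases were described by 5 lists of their pathway, whose counts stand beside 59.1% of all tested genes called in DN:HOM (30% lower) and 19.4% in KO:HOM livers (7.87% lower). Among those that supply saturated fatty acids and esterify the products, 12 of 14 fell and 0 rose in DN:HOM, and 10 of 14 fell and 0 rose in KO:HOM livers, with list medians of -2.32 and -0.95. The largest falls in DN:HOM were those of Thrsp (-5.67, SE 0.45), a lipogenic regulator, the fatty acid synthase Fasn (-4.95, SE 0.50), the acetyl-CoA carboxylase Acacb (-3.44, SE 0.52), the elongase Elovl6 (-3.36, SE 0.38), which feeds stearate to Scd1, and malic enzyme Me1 (-2.60, SE 0.32). In KO:HOM they were Acacb (-1.98, SE 0.46), Lpin1 (-1.85, SE 0.47), Fasn (-1.58, SE 0.40), Thrsp (-1.29, SE 0.35) and Me1 (-1.27, SE 0.28). Over all 48 livers, where 48% and 12.9% of all genes were called, 12 and 5 of 14 fell, Thrsp was at -3.17 (SE 0.68) and Fasn at -2.68 (SE 0.67) in DN:HOM, and Fasn, Thrsp and Elovl6 were not called in KO:HOM livers (edgeR adjusted p = 0.0966, 0.19 and 0.0957). Fasn had 946, 1735 and 3734 CPM (lowest, median, highest) in DN:WT and 45.6, 61.7 and 81.1 CPM in DN:HOM livers, and these groups did not overlap, as for Scd1.

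Of 12 genes that elongate polyunsaturated fatty acids or shorten them in peroxisomes, 8 fell and 1 rose in DN:HOM, and 4 fell and 1 rose in KO:HOM livers, with list medians of -0.92 and -0.23. Elovl5, the elongase between Fads2 and Fads1, fell by 2.59 (SE 0.38) and by 1.14 (SE 0.34). The dehydratase Hacd4 rose by 1.83 (SE 0.29) and 1.11 (SE 0.28). Of the electron donors, 5 of 6 were tested: cytochrome b5 of mitochondria, Cyb5b, fell by 1.31 (SE 0.12) and 0.47 (SE 0.11), the reductase Cyb5r3 by 0.87 (SE 0.14) and 0.54 (SE 0.13), and microsomal Cyb5a by 0.51 (SE 0.10) in DN:HOM livers (0.05, SE 0.10 in KO:HOM), while Cyb5r1 rose by 0.81 (SE 0.16) in DN:HOM livers. That made 3 lower and 1 higher in DN:HOM and 2 lower in KO:HOM livers, with list medians of -0.51 and 0.05. Of 5 desaturases that act on other lipids, 3 fell and 2 rose in DN:HOM, and 1 fell in KO:HOM livers (list medians -0.46 and 0.04): the sterol desaturase Sc5d fell by 1.20 (SE 0.16) and 0.66 (SE 0.15), and the sphingolipid desaturase Degs2 rose by 2.64 (SE 0.46) in DN:HOM livers.

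Of 18 regulators of desaturase transcription, 11 fell and 1 rose (11 and 0 over all 48 livers) in DN:HOM and 7 fell and 0 rose in KO:HOM livers, the targeted gene Nr1h3 among them, with list medians of -0.45 and -0.17. Srebf1, whose product SREBP-1c induces Scd1, Fads1 and Fads2, fell by 3.18 (SE 0.21), from 717 to 1278 CPM in DN:WT to 77.1 to 131 CPM in DN:HOM livers, and by 0.71 (SE 0.18; edgeR adjusted p = 0.0035) in KO:HOM livers, where the range was 278 to 551 CPM. It was at -2.13 (SE 0.37) in DN:HOM over all 48 livers and was then not called in KO:HOM livers (-0.70, SE 0.36; edgeR adjusted p = 0.199), nor were Mlxipl (adjusted p = 0.1), Elovl5 (adjusted p = 0.08) or Cyb5b (adjusted p = 0.0782). Insig1, a target and brake of SREBP processing, fell by 2.51 (SE 0.29) and 1.10 (SE 0.26), Mlxipl, which encodes ChREBP, by 1.33 (SE 0.12) and 0.41 (SE 0.11), and Ppara by 1.47 (SE 0.17) in DN:HOM livers (-0.21, SE 0.15 in KO:HOM). Srebf2 was at -0.05 (SE 0.09; adjusted p = 0.627) in DN:HOM and fell by 0.29 (SE 0.08; adjusted p = 0.00959) in KO:HOM livers. In KO:HOM livers over all 48, 2 of the polyunsaturated list, 1 electron donor and 4 regulators fell. The other receptor gene, Nr1h2 (LXRβ), had differences of 0.12 (SE 0.07) and 0.05 (SE 0.07) that did not pass. Within groups, the log2 level of Srebf1 had a Pearson r of 0.26 with Scd1, 0.40 with Fads1 and 0.41 with Fads2 over the 46 livers, against 0.90, 0.57 and 0.70 with the groups left in.

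The members also differed in which genes they tracked across livers. Within groups, Fads1 and Fads2 had an r of 0.92 with each other, Scd1 had 0.82 with Fads1 and 0.79 with Fads2, and Scd1 had 0.25 with Scd2. Among 8236 genes with a mean of at least 10 CPM, those most like Scd1 over the 46 livers were Elovl6 (r = 0.95, and 0.81 within groups), the acyl-CoA synthetase Acsl5 (0.94 and 0.90), the acetyl-CoA carboxylase Acaca (0.94 and 0.81), BC049987 (0.94 and 0.79) and Echdc1 (0.94 and 0.85). Those most like Scd2 were Iqgap1 (0.91 and 0.82), the collagens Col1a1 (0.91 and 0.77), Col3a1 (0.90 and 0.77) and Col1a2 (0.90 and 0.76), and the lysosomal protease Lgmn (0.90 and 0.79). Among those most like Fads1 were the citrate carrier Slc25a1 (0.90 and 0.85), the sterol synthesis genes Msmo1 (0.87 and 0.80) and Lss (0.86 and 0.82), and Cyp17a1 (0.87 and 0.82). Fads2 shared Cyp17a1 (0.92 and 0.79), Slc25a1 (0.91 and 0.90) and Msmo1 (0.90 and 0.78) with Fads1, and Wbp2 (0.90 and 0.80) was also among its closest. These are descriptions of livers that share genotype, diet and scaling.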

How the data were processed

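Stranded mRNA libraries of 48 mouse livers were sequenced for the study. Per the labels and methods, the authors aligned reads with STAR 2.5.0a to GRCm39 and deposited raw counts of reads per gene, without normalization. Sense counts were taken, since each liver held 6.97 to 8.62 sense reads for 1 antisense read. Reads assigned to no gene, 24.0% to 35.0% per liver, stayed out of library sizes. The members and lists were chosen with earlier results of these data known. Genes were tested with edgeR 4.0.16 (R 4.3.3): filterByExpr, TMM, the quasi-likelihood F test on 6 group means, and Benjamini-Hochberg adjustment over all 15711 genes tested at 0.05. On simulated data of these libraries the test was checked for changed and unchanged genes, and the outcome of that check is not given here. Printed CPM use TMM scaling over all 48 livers, and per-kilobase levels use the exon length of GENCODE M39 genes. Ratios used reads plus 0.5 and two-sided exact permutation tests over livers (scipy 1.17.1).

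DN:WT liver 10 and DN:HOM liver 12 were left out because the study's source data, matched to counts without strand within 0.01% for 5 of 5 genes, hold the other knock-in livers. Genes named are the members, Nr1h3, up to 5 called genes of each pathway list with the largest change or other members of those lists, marker lists, overlapping genes and the 5 genes most like Scd1, Scd2, Fads1 and Fads2. Alternatives were all 48 livers, DESeq2 1.42.0, upper-quartile scaling, library size alone, no low-count filter, a mean of at least 1 CPM, counts without strand, each study alone, the compared groups alone, no shallow livers and a pseudocount of 5 reads. No protein sequences were used here. Some genes that this rule names are not reported here.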

Additional observations from a re-analysis of the deposited data

Results flagged for a closer look

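Several members had homozygous effects that differed between the studies by the test of the difference itself. On the log2 scale the knock-in effect minus the knockout effect was -4.26 for Scd1, 1.27 for Scd2, -2.92 for Scd3, -3.43 for Scd4 and 1.09 for Fads3, each called by edgeR with Benjamini-Hochberg adjustment in 46 livers and none of them over all 48. Scd3 and Scd4 had few reads in DN:HOM livers and passed the low-count filter through other groups. Fads3 turned to -0.43 without strand. The ratio of Scd2 to Scd1 differed by 5.52 and that of Fads1 to Fads2 by 0.96, both by permutation of the study within genotype. That permutation also takes in study differences in level or spread. Allele and study cannot be told apart in these differences.

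In all, 3 single values stood apart from the rest of their group, among 54 groups examined, of which about 1 in 20 would be marked by chance. DN:HOM liver 19 had 171 CPM of Fads1, below the other 6 livers of its group, and a log2 ratio of Fads1 to Fads2 of -0.93, also the lowest of its group. KO:HET liver 15 had 1.61 CPM of Fads3 on its own strand, from 23 reads.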

How the results depend on the processing

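Of 519 log2 fold changes of members recomputed under another setting, 491 kept their direction and their side of the threshold, 16 were no longer called, 6 became called and 6 reversed. The reversals were all of Fads3 without strand (-1.57 in DN:HOM against DN:WT, -0.86 in DN:HOM against DN:HET and -0.43 for the homozygous effect DN minus KO), and of Scd2 where no call was made: -0.17 in DN:HET against DN:WT and 0.50 in DN:WT against KO:WT over all 48 livers, and 0.0131 in the latter with library size alone. The ratio of Scd2 to Scd1 in DN:HET against DN:WT went to -0.0681 over all 48 livers. Of the counts of members called, KO:HOM against KO:WT gave 2 with the compared groups alone, where 5 members passed the filter. KO:HOM against KO:HET gave 2 over all 48 livers and 2 with each study alone. The homozygous effect DN minus KO gave 0 over all 48 livers and 3 with a mean of at least 1 CPM, where 5 members were tested. Apart from the filter, the cause of these moves was not tested. The opposite-strand reads of Fads3, the few reads of Scd3 and Scd4 and the 2 knock-in livers that went against their labels are limits. So are the choice of scaling and the joining of allele with study. No paired analysis was possible because the animal numbers are unique within each study and the same number in the knock-in and knockout studies names different animals.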

Other observations

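Within the knockout study the ratio of Fads1 to Fads2 was also lower in heterozygous livers. The mean log2 ratio fell by 0.15 in KO:HET against KO:WT livers (SE 0.06; two-sided exact permutation p = 0.0339, adjusted 0.0452 over the 4 comparisons of this ratio, n = 8 each), and without the 2 shallow livers the fall was 0.16 with an adjusted p of 0.0514 by the exact permutation test. Neither Fads1 (-0.24, SE 0.25) nor Fads2 (-0.11, SE 0.24) passed the edgeR test there. In DN:HET against DN:WT livers the difference was -0.03 (SE 0.08; exact permutation p = 0.725).

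Scd1 spanned 7.86-fold and Fads2 4.08-fold over the 8 KO:WT livers, against 2.01-fold and 2.30-fold over 7 DN:WT livers and 37.4-fold and 3.98-fold over 8 with liver 10, and Scd1 took 0.590% to 4.58% of all gene reads in KO:WT livers. Whether these spreads differ between the studies was not tested.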
